A study of Capra hircus with 21 samples.

Results

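Ubiquitin-conjugating (E2) enzymes were described by the messenger RNA of their genes in the oocytes and preimplantation embryos of the goat (Capra hircus). The members were all genes whose symbol in the deposited table begins with UBE2, which gave 26 of 19040 listed genes. RNA sequencing covered oocytes matured in vivo and embryos developed in vivo, taken as 2-cell, 4-cell, 8-cell and 16-cell embryos, morulae and blastocysts. Each of the 7 stages had 3 libraries (A, B and C), 21 altogether, and titles gave the stage of each. No treatment, strain, age or genotype is labelled, and the labels do not say how many oocytes or embryos a library held or whether the libraries A, B and C came from different females. What the p-values measure is thus the spread among libraries of the same stage, pooled over the 7 stages, and that spread may be technical. A remark on morula A says that its reverse read file was damaged and left out of the submission. UBE2D1, UBE2D3, UBE2N and UBE2L3 were not analysed here, and genes of the E2 fold with other symbols, such as AKTIP, are given with the partner lists.

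An E2 enzyme takes activated ubiquitin from an E1 enzyme onto a cysteine of its own and, together with an E3 ligase, hands it to a protein or to the end of a growing ubiquitin chain. The E2 helps to set which lysine of ubiquitin is used for the next link, and so whether the marked protein goes to the proteasome or takes on another role. Some members carry ubiquitin-like proteins such as NEDD8 or ISG15 in its place. In mammalian oocytes and early embryos, protein degradation by this route drives exit from meiosis, the cleavage divisions and the removal of maternal proteins. Roles given below are known from human cells, mice or yeast.

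Values are in RPM: the reads of a gene scaled to 1 M reads of the library, recovered from the deposited RPKM (RPM per kilobase of gene) by undoing the division by the gene's span. RPM follows transcript length, so levels are compared between stages of a gene and not between genes. The libraries held 8.47 (morula B) to 26.7 M (2-cell C) reads in the listed genes, and 3 reads, the limit that a count of 0 allows, amounted to 0.04504 to 0.125 RPM, for counting error only. Reads in listed genes made up 24.4 and 24.9% of the library in blastocysts A and B, but 40.5% in blastocyst C. The 6 oocyte genes of the marker list (GDF9, BMP15, ZP2, ZP4, BTG4 and MOS) summed to 0.398 to 2.01 RPM in blastocysts and 5501 to 12579.9 RPM in oocytes, and the trophectoderm keratin KRT8 stood at 766, 1337 and 769 RPM in blastocysts and 0 in oocytes. The other trophectoderm markers listed were less clear. CDX2 averaged 1.01 RPM in blastocysts and 0.139 in oocytes, and GATA3 34.2 and 12.3. TFAP2C was higher at the 16-cell stage (11.7 RPM) and in morulae (9.15) than in blastocysts (2.62). Of 10 cumulus and granulosa markers 9 were found, and their sum ran from 44.02 to 108 RPM in oocytes and 155 to 193 RPM at the 8-cell stage to 0.243 to 3.18 RPM in blastocysts. VCAN, which encodes the matrix protein versican, made up most of this sum in oocytes and at the 8-cell stage. It stood at 37.6 to 102 RPM in oocytes, 152 to 189 at the 8-cell stage and 0.0663 to 1.19 in blastocysts. For 16-cell embryos the sum was 37.2 to 66.9 RPM, and morulae held 1.46 to 81.1 RPM. Between 8-cell and 16-cell embryos mean VCAN fell from 168 to 31.5 RPM, but TNFAIP6 of the same list rose from 6.10 to 24.7 RPM. Mean TNFAIP6 was 4.85 RPM for oocytes, 13.2 RPM for morulae (0.446 to 38.7) and 0.170 RPM for blastocysts. FSHR, AMH, INHA and LHCGR were at 0 in every oocyte library, and the part of this signal in the UBE2 values was not tested. Markers of oviduct epithelium (2 found of 4) and blood (4 found of 6) summed to at most 3.37 RPM in any library.

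Libraries 16-cell C and morula C resembled the stage before them more than libraries A and B did. GDF9, an oocyte growth factor, was at 17.5, 24.1 and 143 RPM in 16-cell embryos A, B and C and at 1.32, 1.58 and 27.5 RPM in morulae. Among the 22 UBE2 genes tested, morula C lay nearer to the 16-cell mean than morulae A and B did for 14 genes (all genes tested 55.1%), and 16-cell C lay nearer to the 8-cell mean than its mates for 13 (all genes 67.6%). Pearson correlations of log2(RPM + 1) over the genes tested, within a stage, lay between 0.833 (morulae) and 0.992 (8-cell). Many results of UBE2 genes that touch these stages are therefore also given without these 2 libraries. For the others, and for single partner genes, no such value is given.

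Of the 26 genes, 22 reached 1 RPM in at least 3 libraries and were tested with limma together with all 10384 genes that did so. UBE2L6, UBE2M, UBE2QL1 and UBE2Z stayed below that level. They entered limma only in the alternative with no filter, whose values for them are not given here. Voom, on recovered reads, tested UBE2M and UBE2Z. The threshold for a call was a Benjamini-Hochberg adjusted p below 0.05 over all genes tested together with a log2 fold change of at least 1 in size. The median gene shifted between stages, so fold changes are given on the log2(RPM + 1) scale and also relative to the median of all genes tested at that step. Across the 7 stages 19 of the 22 differed in the moderated F test, against 92.5% of all genes tested. UBE2B (adjusted p = 0.342), UBE2O (0.0862) and UBE2V2 (0.0804) did not pass. The highest stage mean fell at the oocyte stage for 1 gene, at the 2-cell stage for 4 and at the 4-cell stage for 2. It fell at the 8-cell stage for 6, the 16-cell stage for 3, the morula for 2 and the blastocyst for 4. In stage order these were 4.55, 18.2, 9.09, 27.3, 13.6, 9.09 and 18.2% of the UBE2 genes tested. The shares of all genes tested were 7.73, 19.8, 6.95, 23.2, 11.02, 16.7 and 14.6%. The peak stages are thus no result about the family. Between consecutive stages 16 genes were called at least once, in 21 calls, 8 higher and 13 lower. The share of all genes called at least once was not counted, so these numbers are no result about the family. Shares of all genes at each step are given below. In whole embryos, fewer cells of a type and less RNA per cell cannot be told apart.

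**Figure D1:**
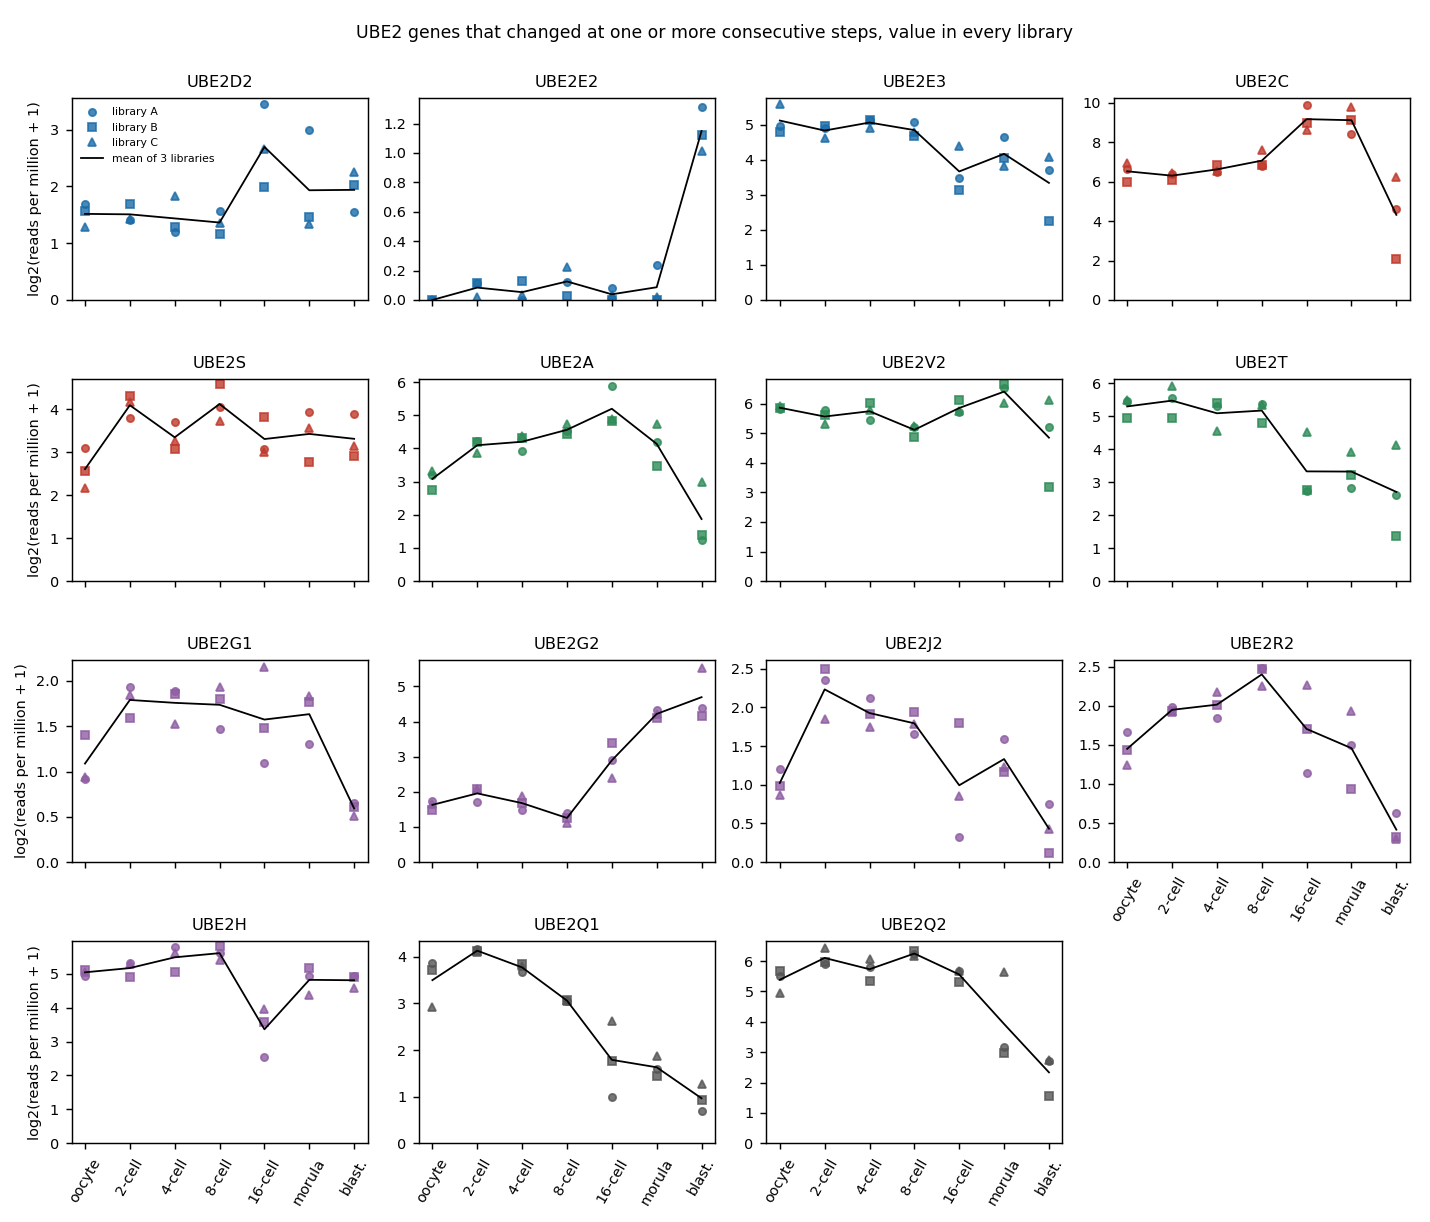
RPM, plotted as log2(RPM + 1), in every library (circles A, squares B, triangles C) of 15 UBE2 genes that were called at a consecutive step, with the stage mean as a line and stages in order on the x axis. Each panel has its own y scale. UBE2C reaches 399 to 939 RPM at the 16-cell stage and 3.28 to 74.3 RPM in blastocysts.

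The E2 pair of the anaphase-promoting complex, the E3 ligase that ends mitosis and meiosis by marking cyclin B and securin, moved apart. UBE2C, which places the first ubiquitins on its substrates in human cells, rose at the 16-cell stage and fell in blastocysts, while UBE2S, which lengthens the chains, rose at the 2-cell stage. UBE2C stood at 99.4, 63.04 and 122 RPM in oocytes A, B and C, 84.003, 67.2 and 84.9 at the 2-cell, 89.1, 113 and 92.9 at the 4-cell and 109, 113 and 193 at the 8-cell stage. Its later values were 939, 513 and 399 RPM in 16-cell embryos A, B and C, 344, 558 and 894 in morulae and 23.8, 3.28 and 74.3 in blastocysts. All 16-cell and morula libraries lay above all 12 earlier ones, and blastocyst C alone among the blastocysts lay within the range of the oocytes and early embryos. UBE2C averaged 617 ± 285 RPM at the 16-cell and 138 ± 47.5 RPM at the 8-cell stage (SD, n = 3 each), a 4.46-fold ratio of means (log2 fold change 2.11, SE 0.65, 2.63 after subtraction of the median gene, adjusted p = 0.00978). The rise held in all 11 alternative settings and without 16-cell C and morula C (log2 fold change 2.37, adjusted p = 0.00778), but not without 16-cell A (adjusted p = 0.059). In blastocysts it fell to 33.8 ± 36.5 RPM, against 599 ± 277 RPM in morulae (log2 fold change -4.80, SE 0.65, -4.30 after subtraction of the median gene, adjusted p = 5.3e-06), a call kept in all alternatives and whichever library was left out. Blastocysts were also lower than oocytes (log2 fold change -2.21, SE 0.65, adjusted p = 0.00505), but the groups overlapped and the call was lost without blastocyst B (0.0585).

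UBE2S stood at 7.53, 4.88 and 3.48 RPM in oocytes A, B and C, 12.8, 18.8 and 16.98 at the 2-cell, 11.99, 7.43 and 8.52 at the 4-cell and 15.6, 22.97 and 12.1 at the 8-cell stage. From the 16-cell stage on it stood at 7.44, 13.2 and 7.03 RPM in 16-cell embryos A, B and C, 14.4, 5.83 and 10.7 in morulae and 13.8, 6.46 and 7.804 in blastocysts. Every 2-cell library lay above every oocyte library, the 4-cell libraries lay below all 2-cell and all 8-cell ones, and from the 8-cell stage on neighbouring stages overlapped. UBE2S averaged 16.2 ± 3.07 RPM at the 2-cell stage and 5.29 ± 2.06 RPM in oocytes (log2 fold change 1.48, SE 0.40, 1.03 after subtraction of the median gene, adjusted p = 0.0131). The median gene itself rose by 0.46 at this step, and the call was lost with quantile normalization (log2 fold change 0.82), with median-ratio scaling (0.76), with voom on the recovered reads, and without oocyte C (adjusted p = 0.0866), 2-cell B (0.0511) or 2-cell C (0.0536). The ratio of UBE2C to UBE2S reads within a library, which no scaling of libraries can move, was 12.9 to 34.97 in oocytes, 3.57 to 6.55 at the 2-cell, 7.43 to 15.2 at the 4-cell, 4.92 to 15.96 at the 8-cell and 38.9 to 126 at the 16-cell stage, 23.9 to 95.8 in morulae and 0.508 to 9.52 in blastocysts. All 16-cell libraries were above all 8-cell libraries in this ratio, and all blastocysts were below all morulae. The size of the ratio depends on the lengths of both transcripts, and only its change between stages can be read.

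The general ubiquitin E2s work with many RING-type E3 ligases, and the 4 members tested differed in course. UBE2D2 rose and UBE2E3 fell at the 16-cell stage, UBE2E2 was highest in blastocysts, and UBE2E1 was not called at any step. UBE2D2 stood at 2.24, 1.96 and 1.44 RPM in oocytes A, B and C, 1.65, 2.24 and 1.68 at the 2-cell, 1.28, 1.44 and 2.57 at the 4-cell and 1.95, 1.25 and 1.57 at the 8-cell stage. The later libraries gave 9.92, 2.97 and 5.28 RPM in 16-cell embryos A, B and C, 7.01, 1.75 and 1.53 in morulae and 1.92, 3.07 and 3.75 in blastocysts. The 16-cell libraries all lay above the 8-cell ones, and morulae B and C were back among the early values while morula A was not. UBE2D2 averaged 6.06 ± 3.54 RPM at the 16-cell and 1.59 ± 0.35004 RPM at the 8-cell stage (log2 fold change 1.33, SE 0.39, 1.85 after subtraction of the median gene, adjusted p = 0.00737). This call rested on 16-cell A (adjusted p = 0.0636 without it), was lost with a pseudocount of 5, and without 16-cell C and morula C it was kept (log2 fold change 1.35, adjusted p = 0.00831). Without morula A, morulae were called lower than 16-cell embryos (log2 fold change -1.30, adjusted p = 0.0273).

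UBE2E3 stood at 30.03, 26.8 and 47.7 RPM in oocytes A, B and C, 28.8, 30.5 and 23.8 at the 2-cell, 34.1, 34.3 and 29.2 at the 4-cell and 32.8, 24.4 and 26.7 at the 8-cell stage. Afterwards it was at 10.2, 7.77 and 19.9 RPM in 16-cell embryos A, B and C, 23.97, 15.5 and 13.2 in morulae and 11.9, 3.77 and 15.8 in blastocysts. All 12 libraries up to the 8-cell stage exceeded all 16-cell libraries, and morula A lay at the lower end of the early range. UBE2E3, a nuclear E2 of the same family, averaged 12.6 ± 6.43 RPM at the 16-cell and 27.99 ± 4.35 RPM at the 8-cell stage (log2 fold change -1.18, SE 0.43, -0.66 after subtraction of the median gene, adjusted p = 0.0255). The fall was smaller than the threshold with quantile normalization (log2 fold change -0.72) and median-ratio scaling (-0.65), and was lost with voom, with a pseudocount of 5 and without 8-cell A (adjusted p = 0.0853), 16-cell A (0.0782) or 16-cell B (0.122). Without 16-cell C and morula C it was larger (log2 fold change -1.54, adjusted p = 0.00388). In blastocysts against oocytes the fall was called whichever library was left out (log2 fold change -1.78, SE 0.43, adjusted p = 0.00107), and was lost with quantile normalization. Against morulae, blastocysts were called lower without blastocyst C (log2 fold change -1.19, adjusted p = 0.0377).

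UBE2E2 had 0, 0 and 0 reads in the oocyte libraries, 5, 5 and 1 at the 2-cell, 0, 6 and 1 at the 4-cell and 5, 1 and 9 at the 8-cell stage. It had 3, 0 and 1 reads at the 16-cell stage, 10, 0 and 1 in morulae and 67, 67 and 36 in blastocysts. In RPM the blastocysts stood at 1.48, 1.18 and 1.02, and the highest of the other 18 libraries, morula A, at 0.178. The blastocyst libraries were thus the 3 highest, with no overlap. The log2 fold change of blastocysts over morulae was 1.06 (SE 0.15), 0.30 with a pseudocount of 5 and 0.97 with array weights. Against the limit of 3 reads in each oocyte library, where no read was counted, blastocysts were at least 20.9-fold higher. The gene passed the filter through the blastocysts alone, so a difference there was built into its test. Its calls stay in the counts and support nothing. UBE2E1 stood at 0.607, 1.002 and 0.277 RPM in oocytes A, B and C, 1.103, 0.983 and 1.44 at the 2-cell, 0.682, 0.765 and 1.37 at the 4-cell and 0.894, 1.35 and 1.33 at the 8-cell stage. Later embryos held 1.58, 0.352 and 1.05 RPM in 16-cell embryos A, B and C, 0.6599, 0.666 and 0.4496 in morulae and 0.552, 0.0351 and 0.199 in blastocysts. The values of UBE2E1, the listed gene nearest to UBE2E2 on chromosome 27 in the table's coordinates, overlapped between all neighbouring stages.

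Among the E2s of chromatin, DNA damage and K63-linked chains, UBE2T fell at the 16-cell stage, UBE2A and UBE2V2 fell in blastocysts, and UBE2B was not called in the fit of all libraries with equal weight. UBE2A and UBE2B are the mammalian forms of yeast RAD6, which ubiquitinates PCNA with RAD18 and histone H2B with RNF20 and RNF40. UBE2A stood at 8.19, 5.65 and 8.97 RPM in oocytes A, B and C, 17.7, 17.5 and 13.5 at the 2-cell, 14.1, 18.9 and 19.7 at the 4-cell and 21.9, 20.8 and 25.5 at the 8-cell stage. Its later values were 57.6, 27.3 and 28.9 RPM in 16-cell embryos A, B and C, 17.2, 10.2 and 25.8 in morulae and 1.37, 1.597 and 6.95 in blastocysts. UBE2A was highest in 16-cell A, and all blastocysts lay below all morulae. It averaged 3.31 ± 3.16 RPM in blastocysts and 17.7 ± 7.797 RPM in morulae (log2 fold change -2.27, SE 0.44, -1.76 after subtraction of the median gene, adjusted p = 0.000299), a call kept whichever library was left out and lost among the alternatives with array weights only. The step to the morula was not called but was without 16-cell C and morula C (log2 fold change -1.51, adjusted p = 0.0236), without morula C (adjusted p = 0.0225) and without blastocyst C (0.0419). It was called as well with median-ratio scaling (log2 fold change -1.25) and array weights (-1.36). With array weights 2-cell embryos were called higher than oocytes too (log2 fold change 1.02). Against oocytes, blastocysts were lower (log2 fold change -1.21, SE 0.44, adjusted p = 0.0192), but both overlapped. The call was lost in both scalings, with RPKM, a pseudocount of 5 and array weights, and without oocyte A (adjusted p = 0.0558), oocyte C (0.0613), blastocyst A (0.114) or blastocyst B (0.0825).

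UBE2B stood at 6.41, 8.57 and 6.67 RPM in oocytes A, B and C, 6.18, 9.56 and 7.33 at the 2-cell, 11.1, 8.503 and 36.1 at the 4-cell and 8.49, 7.699 and 17.5 at the 8-cell stage. From the 16-cell stage on it stood at 3.497, 6.76 and 7.58 RPM in 16-cell embryos A, B and C, 11.8, 4.33 and 6.37 in morulae and 10.2, 3.11 and 20.8 in blastocysts. The spread within stages was wide, with 4-cell C, the highest library, more than 3 times its stage mates, and neighbouring stages overlapped except that all 16-cell libraries lay below all 8-cell ones. With array weights UBE2B was called lower at the 8-cell than the 4-cell stage (log2 fold change -1.06, adjusted p = 0.0255). UBE2B shares 379 bases with CDKL3 on the opposite strand in the table's coordinates, and whether counting used the strand is not given in the sources used here, so reads of the 2 genes may be mixed. UBE2T stood at 42.5, 29.95 and 43.9 RPM in oocytes A, B and C, 46.3, 29.7 and 58.96 at the 2-cell, 38.8, 41.3 and 22.3 at the 4-cell and 40.3, 26.6 and 39.8 at the 8-cell stage. The later libraries gave 5.57, 5.71 and 21.8 RPM in 16-cell embryos A, B and C, 6.06, 8.29 and 14.1 in morulae and 5.15, 1.56 and 16.5 in blastocysts. Every 16-cell library lay below every 8-cell library, with 16-cell C nearest to them. UBE2T, the E2 of the Fanconi anemia pathway that works with FANCL, averaged 11.04 ± 9.36 RPM at the 16-cell and 35.6 ± 7.75 RPM at the 8-cell stage (log2 fold change -1.84, SE 0.56, -1.32 after subtraction of the median gene, adjusted p = 0.00893). All 11 alternatives kept this call, but it was lost without 16-cell A (adjusted p = 0.0542) or 16-cell B (0.0505), and without 16-cell C and morula C it was larger (log2 fold change -2.44, adjusted p = 0.000723). In blastocysts against oocytes the fall (log2 fold change -2.59, SE 0.56, adjusted p = 0.000344) was kept in all alternatives and whichever library was left out.

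UBE2V2 stood at 55.5, 57.1 and 59.4 RPM in oocytes A, B and C, 54.6, 47.6 and 38.4 at the 2-cell, 42.4, 63.4 and 54.4 at the 4-cell and 36.5, 28.5 and 36.8 at the 8-cell stage. Afterwards it was at 51.2, 68.9 and 52.4 RPM in 16-cell embryos A, B and C, 90.7, 101 and 64.8 in morulae and 36.5, 8.13 and 69.5 in blastocysts. Blastocyst C overlapped the morulae, while blastocyst B had the lowest value of all 21 libraries. UBE2V2, a catalytically inactive E2 variant that pairs with UBE2N to build K63-linked chains, averaged 38.04 ± 30.7 RPM in blastocysts and 85.5 ± 18.6 RPM in morulae (log2 fold change -1.56, SE 0.49, -1.05 after subtraction of the median gene, adjusted p = 0.0138). This call was lost without blastocyst B (adjusted p = 0.135), with both scalings (log2 fold change -0.57 and -0.65) and with array weights; it was kept without 16-cell C and morula C (log2 fold change -1.74, adjusted p = 0.0148). Without blastocyst C the fall against oocytes was called too (log2 fold change -1.66, adjusted p = 0.00274).

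**Figure D2:**
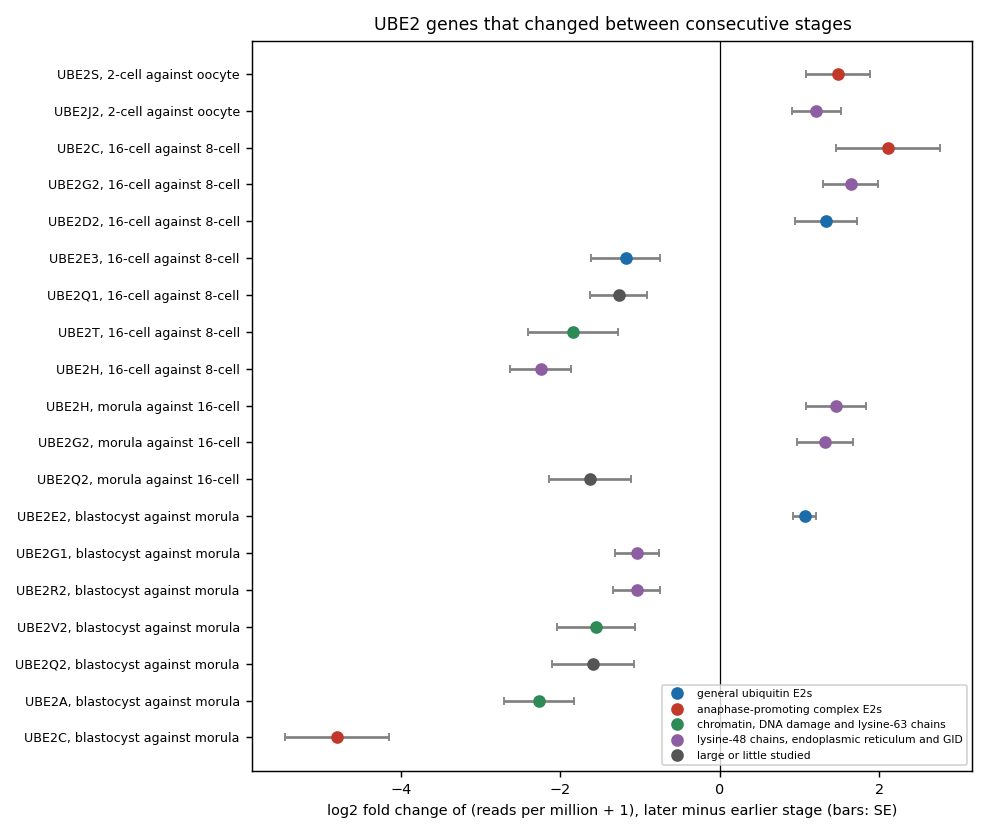
Log2 fold change of (RPM + 1), later minus earlier stage, with its SE as a bar, for 19 calls of UBE2 genes between consecutive stages, coloured by role group. UBE2C has the highest and the lowest of these values, 2.11 at the 16-cell stage and -4.80 in blastocysts.

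Of the 7 E2s of K48-linked chains, the endoplasmic reticulum and the GID ligase, UBE2G2 rose at both the 16-cell and the morula stage, and UBE2H fell at the 16-cell stage and rose in morulae. UBE2J2 rose at the 2-cell stage, UBE2G1 and UBE2R2 fell in blastocysts, and UBE2J1 and UBE2K were not called. UBE2G2 stood at 2.35, 1.81 and 2.14 RPM in oocytes A, B and C, 2.27, 3.19 and 3.26 at the 2-cell, 1.82, 2.19 and 2.66 at the 4-cell and 1.66, 1.37 and 1.16 at the 8-cell stage. Later embryos held 6.45, 9.45 and 4.304 RPM in 16-cell embryos A, B and C, 18.9, 16.2 and 17.8 in morulae and 19.7, 17.04 and 45.4 in blastocysts. The 3 last stages did not overlap any earlier one, all morulae lay above all 16-cell embryos, and blastocysts overlapped morulae. UBE2G2, which serves the degradation of misfolded proteins drawn out of the endoplasmic reticulum, averaged 6.73 ± 2.59 RPM at the 16-cell and 1.399 ± 0.252 RPM at the 8-cell stage (log2 fold change 1.64, SE 0.35, 2.16 after subtraction of the median gene, adjusted p = 0.000657). That call was kept whichever library was left out and was lost with a pseudocount of 5. Morulae averaged 17.6 ± 1.35 RPM against 6.73 ± 2.59 RPM at the 16-cell stage (log2 fold change 1.32, SE 0.35, 1.41 after subtraction of the median gene, adjusted p = 0.0107), a call lost without 16-cell C (adjusted p = 0.0527) and with a pseudocount of 5 (log2 fold change 0.97) and kept without both 16-cell C and morula C (log2 fold change 1.07, adjusted p = 0.035). From oocyte to blastocyst the ratio of means was 13.03, with 27.4 ± 15.7 RPM in blastocysts and 2.103 ± 0.272 RPM in oocytes (log2 fold change 3.06, SE 0.35, adjusted p = 1.24e-07). This call was kept in the 10 alternatives that gave a value for it and without any single library. With quantile normalization and median-ratio scaling UBE2G2 was also called higher in blastocysts than in morulae (log2 fold change 1.34 and 1.39).

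UBE2H stood at 29.8, 33.98 and 32.4 RPM in oocytes A, B and C, 39.1, 28.7 and 38.3 at the 2-cell, 54.7, 32.1 and 48.03 at the 4-cell and 48.4, 55.1 and 41.2 at the 8-cell stage. Its later values were 4.83, 10.9 and 14.7 RPM in 16-cell embryos A, B and C, 29.4, 34.8 and 19.9 in morulae and 29.9, 29.2 and 22.7 in blastocysts. The 16-cell libraries were the 3 lowest of the 21, below all 8-cell embryos and all morulae. UBE2H, the E2 of the GID (CTLH) ligase, averaged 10.1 ± 4.99 RPM at the 16-cell and 48.2 ± 6.93 RPM at the 8-cell stage (log2 fold change -2.25, SE 0.38, -1.73 after subtraction of the median gene, adjusted p = 7.17e-05), and this call was kept in the 10 alternatives that gave a value for it and whichever library was left out. Morulae averaged 28.02 ± 7.55 RPM against 10.1 ± 4.99 RPM at the 16-cell stage (log2 fold change 1.46, SE 0.38, 1.55 after subtraction of the median gene, adjusted p = 0.00947), lost only without 16-cell A (adjusted p = 0.0658) and larger without 16-cell C and morula C (log2 fold change 1.99, adjusted p = 0.000507).

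UBE2J2 stood at 1.31, 0.981 and 0.832 RPM in oocytes A, B and C, 4.11, 4.63 and 2.597 at the 2-cell, 3.35, 2.75 and 2.36 at the 4-cell and 2.16, 2.83 and 2.43 at the 8-cell stage. From the 16-cell stage on it stood at 0.254, 2.46 and 0.814 RPM in 16-cell embryos A, B and C, 2.02, 1.25 and 1.35 in morulae and 0.685, 0.0877 and 0.341 in blastocysts. All 2-cell libraries were above all oocytes. UBE2J2, anchored in the membrane of the endoplasmic reticulum, averaged 3.78 ± 1.06 RPM at the 2-cell stage and 1.04 ± 0.244 RPM in oocytes (log2 fold change 1.21, SE 0.31, 0.75 after subtraction of the median gene, adjusted p = 0.00957). It was not called with quantile normalization (log2 fold change 0.58), median-ratio scaling (0.66), voom or pseudocounts of 0.1 and 5, nor without oocyte C (adjusted p = 0.0525). Later falls were called at the 16-cell stage without 16-cell B (log2 fold change -1.20, adjusted p = 0.0031) and in blastocysts against morulae without blastocyst A (-1.06, 0.0222). With all libraries they were called with a pseudocount of 0.1 at the 16-cell stage (log2 fold change -1.45), in blastocysts against morulae (-2.00) and in blastocysts against oocytes (-1.48), and with voom in blastocysts against morulae (-2.17, adjusted p = 0.0368). UBE2G1 stood at 0.891, 1.64 and 0.924 RPM in oocytes A, B and C, 2.83, 2.01 and 2.58 at the 2-cell, 2.71, 2.63 and 1.88 at the 4-cell and 1.77, 2.497 and 2.83 at the 8-cell stage. The later libraries gave 1.13, 1.79 and 3.44 RPM in 16-cell embryos A, B and C, 1.46, 2.42 and 2.55 in morulae and 0.574, 0.526 and 0.426 in blastocysts. Blastocysts lay below all other libraries of UBE2G1, an E2 that lengthens K48-linked chains with cullin-RING ligases in human cells. It averaged 0.509 ± 0.0759 RPM in blastocysts and 2.14 ± 0.594 RPM in morulae (log2 fold change -1.04, SE 0.28, -0.54 after subtraction of the median gene, adjusted p = 0.0049), just past the fold threshold, and without morula B or C the log2 fold change was -0.97 or -0.94.

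UBE2R2 stood at 2.18, 1.71 and 1.37 RPM in oocytes A, B and C, 2.97, 2.83 and 2.78 at the 2-cell, 2.604, 3.04 and 3.53 at the 4-cell and 4.57, 4.54 and 3.78 at the 8-cell stage. Afterwards it was at 1.21, 2.26 and 3.79 RPM in 16-cell embryos A, B and C, 1.84, 0.916 and 2.81 in morulae and 0.552, 0.246 and 0.227 in blastocysts. The blastocysts were the 3 lowest libraries. UBE2R2, a relative of CDC34 that serves SCF ligases, averaged 0.342 ± 0.183 RPM in blastocysts and 1.85 ± 0.947 RPM in morulae (log2 fold change -1.04, SE 0.30, -0.54 after subtraction of the median gene, adjusted p = 0.00756). The log2 fold change was -0.81 without morula C, -0.99 without blastocyst B and -0.98 without blastocyst C, all short of the threshold. Both UBE2G1 and UBE2R2 were also lost with quantile normalization, median-ratio scaling, array weights, a pseudocount of 5 and without 16-cell C and morula C. Against oocytes, blastocysts were lower in UBE2R2 (log2 fold change -1.03, SE 0.30, adjusted p = 0.00423), a call lost without oocyte A (log2 fold change -0.92), blastocyst B (-0.98) or blastocyst C (-0.97). It was lost too with a pseudocount of 5 (log2 fold change -0.34), quantile normalization (-0.74) or median-ratio scaling (-0.93).

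UBE2K stood at 18.2, 11.04 and 13.4 RPM in oocytes A, B and C, 24.4, 27.7 and 16.4 at the 2-cell, 35.1, 40.7 and 24.2 at the 4-cell and 14.3, 11.96 and 14.5 at the 8-cell stage. Later embryos held 28.1, 28.8 and 25.01 RPM in 16-cell embryos A, B and C, 41.2, 53.7 and 37.5 in morulae and 21.5, 24.6 and 31.7 in blastocysts. The 8-cell libraries were all lower than the 4-cell and the 16-cell libraries, and the morulae all higher than the 16-cell and blastocyst libraries. UBE2K, which makes K48-linked chains unaided in the test tube, passed the adjusted p at the 16-cell stage but not the fold (log2 fold change 0.96, adjusted p = 0.0217). Without 16-cell C and morula C it was called higher there (log2 fold change 1.02, adjusted p = 0.0118) and lower at the 8-cell than the 4-cell stage (log2 fold change -1.21, adjusted p = 0.0487). It was also called higher at the 16-cell stage without 8-cell C (adjusted p = 0.0395), without 16-cell C (0.0227), and with quantile normalization (log2 fold change 1.40), median-ratio scaling (1.47), a pseudocount of 0.1, array weights and voom. Array weights called the lower 8-cell level as well (log2 fold change -1.12). Blastocysts were called higher than oocytes without oocyte A (log2 fold change 1.01, adjusted p = 0.0296), with both scalings (1.59 and 1.42) and with voom (1.17). UBE2J1 stood at 0.1896, 0.213 and 0.185 RPM in oocytes A, B and C, 0.526, 0.966 and 0.4803 at the 2-cell, 0.868, 0.489 and 0.298 at the 4-cell and 0.465, 0.978 and 0.524 at the 8-cell stage. Its later values were 1.05, 0.704 and 0.512 RPM in 16-cell embryos A, B and C, 1.302, 0.9995 and 0.915 in morulae and 1.72, 0.597 and 1.53 in blastocysts. UBE2J1, the other membrane-anchored E2 of the endoplasmic reticulum, was above all oocytes in every blastocyst, but with a log2 fold change of 0.90 (adjusted p = 0.00151) it stayed short of the fold threshold. Without blastocyst B it was called (1.13, adjusted p = 0.00022), and also with a pseudocount of 0.1 (2.11), quantile normalization (1.37), median-ratio scaling (1.33) and voom (2.79). UBE2J1 reached 1 RPM only in 16-cell A, morula A and blastocysts A and C, so it passed the filter only with the blastocysts. A difference there was partly built into its tests on RPM, and those calls are no support.

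Among the E2s of ubiquitin-like modifiers and of the E1 enzyme UBA6, UBE2Z, UBE2M and UBE2L6 stayed below the filter of 1 RPM. UBE2Z stood at 0.284, 0.107 and 0.03698 RPM in oocytes A, B and C, 0.509, 0.491 and 0.826 at the 2-cell, 0.289, 0.214 and 0.321 at the 4-cell and 0.643, 0.874 and 0.243 at the 8-cell stage. From the 16-cell stage on it stood at 0.332, 0.528 and 0.1396 RPM in 16-cell embryos A, B and C, 0.6599, 0.2499 and 0.482 in morulae and 0.817, 0.369 and 0.114 in blastocysts. UBE2Z, which is charged by UBA6, had reads in every library. Its 2-cell values lay above all oocyte and 4-cell values, and later neighbouring stages overlapped. UBE2M stood at 0.0379, 0.0853 and 0 RPM in oocytes A, B and C, 0.119, 0.131 and 0.04503 at the 2-cell, 0.165, 0.0918 and 0.0917 at the 4-cell and 0.197, 0.125 and 0.0562 at the 8-cell stage. The later libraries gave 0, 0.0251 and 0.0233 RPM in 16-cell embryos A, B and C, 0.482, 0 and 0.337 in morulae and 0.398, 0.298 and 0.596 in blastocysts. UBE2M, the NEDD8-conjugating enzyme of the cullins, was above the limit of 3 reads in 13 of 21 libraries, and its blastocyst values lay above those of all libraries up to the 16-cell stage. Voom called UBE2M higher in blastocysts than in oocytes (log2 fold change 3.92, SE 1.03, adjusted p = 0.00246) and at no consecutive step. It called UBE2Z at no step. UBE2L6, the ISG15-conjugating enzyme, ranged from 0 to 0.146 RPM, with at most 7 reads and none in 10 libraries.

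Among the large or little studied members the calls were falls: UBE2Q1 at the 16-cell stage, UBE2Q2 in morulae and blastocysts, and UBE2U between oocyte and blastocyst. UBE2O was not called. Levels fell earlier than these calls in UBE2Q1, from the 2-cell stage on, and in UBE2U, from the 4-cell to the 8-cell stage. UBE2Q1 stood at 13.5, 12.1 and 6.6004 RPM in oocytes A, B and C, 16.97, 16.4 and 16.2 at the 2-cell, 11.8, 13.3 and 12.9 at the 4-cell and 7.29, 7.45 and 7.28 at the 8-cell stage. Afterwards it was at 0.977, 2.41 and 5.12 RPM in 16-cell embryos A, B and C, 1.998, 1.71 and 2.65 in morulae and 0.618, 0.895 and 1.42 in blastocysts. Every 16-cell library lay below every 8-cell library, and the 8-cell libraries below every 4-cell library. UBE2Q1, whose loss lowers female fertility in mice, averaged 2.84 ± 2.103 RPM at the 16-cell and 7.34 ± 0.0942 RPM at the 8-cell stage (log2 fold change -1.27, SE 0.36, -0.75 after subtraction of the median gene, adjusted p = 0.00593). The call was lost without 16-cell A (adjusted p = 0.0572) and, through the fold threshold, with quantile normalization (log2 fold change -0.93), median-ratio scaling (-0.84), a pseudocount of 5 and RPKM; without 16-cell C and morula C it was larger (log2 fold change -1.68, adjusted p = 0.000151). Blastocysts were below all oocytes in all alternatives and without any single library (log2 fold change -2.54, SE 0.36, adjusted p = 2.66e-06).

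UBE2Q2 stood at 45.1, 50.1 and 30.01 RPM in oocytes A, B and C, 59.2, 62.1 and 84.8 at the 2-cell, 54.7, 39.3 and 66.1 at the 4-cell and 73.8, 80.2 and 71.6 at the 8-cell stage. Later embryos held 50.6, 39.02 and 49.8 RPM in 16-cell embryos A, B and C, 8.03, 6.79 and 49.2 in morulae and 5.4999, 1.95 and 5.704 in blastocysts. Morulae A and B were far below all earlier libraries, morula C was among the 16-cell embryos, and the blastocysts were the 3 lowest. UBE2Q2 averaged 21.3 ± 24.1 RPM in morulae and 46.5 ± 6.45 RPM at the 16-cell stage (log2 fold change -1.63, SE 0.51, -1.54 after subtraction of the median gene, adjusted p = 0.0294), with a larger fall without 16-cell C and morula C (log2 fold change -2.44, adjusted p = 0.000203). It was not called without 16-cell A (adjusted p = 0.0807), 16-cell C (0.0744), morula A (0.174) or morula B (0.173). The call was also lost with RPKM (log2 fold change -0.42) and with no filter (adjusted p = 0.0523). Blastocysts averaged 4.38 ± 2.11 RPM, against 21.3 ± 24.1 RPM in morulae (log2 fold change -1.59, SE 0.51, -1.09 after subtraction of the median gene, adjusted p = 0.0166), a call lost without morula C (0.167), without blastocyst B (0.0992), without 16-cell C and morula C (log2 fold change -0.73, adjusted p = 0.137) with both scalings (log2 fold change -0.94 and -0.80), with RPKM (-0.30) and with array weights (-1.10). Against oocytes the fall was called whichever library was left out (log2 fold change -3.05, SE 0.51, adjusted p = 2.14e-05). With RPKM it was short of the threshold (log2 fold change -0.65).

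UBE2U stood at 3.91, 7.61 and 9.76 RPM in oocytes A, B and C, 11.3, 11.6 and 9.73 at the 2-cell, 11.2, 14.3 and 14.7 at the 4-cell and 6.24, 4.49 and 4.32 at the 8-cell stage. Its later values were 5.88, 1.91 and 5.28 RPM in 16-cell embryos A, B and C, 0.856, 0.0416 and 5.27 in morulae and 0.155, 0.1404 and 0.114 in blastocysts. All 8-cell libraries lay below all 4-cell libraries, morula C lay among the 16-cell values, and the blastocysts were low throughout. UBE2U was below its lowest oocyte value in all blastocysts (log2 fold change -2.76, SE 0.47, adjusted p = 2.39e-05). The call was kept in the 10 alternatives that gave a value for it and without any single library. No consecutive step was called, but with array weights 8-cell embryos were called lower than 4-cell embryos (log2 fold change -1.23, adjusted p = 0.000948) and morulae lower than 16-cell embryos (-1.57, 0.0362). Morulae were also called lower than 16-cell embryos without 16-cell C and morula C (log2 fold change -1.69, adjusted p = 0.00394), without morula C (adjusted p = 0.000764) and without 16-cell B (0.0369), and blastocysts lower than morulae without morula B (0.00853). UBE2O stood at 1.61, 1.39 and 0.8505 RPM in oocytes A, B and C, 2.699, 2.83 and 3.36 at the 2-cell, 2.65, 1.698 and 1.902 at the 4-cell and 2.52, 4.05 and 2.08 at the 8-cell stage. From the 16-cell stage on it stood at 0.664, 1.43 and 1.81 RPM in 16-cell embryos A, B and C, 3.82, 2.37 and 2.1999 in morulae and 2.19, 5.76 and 1.36 in blastocysts. UBE2O, a large enzyme that acts as E2 and E3 in one and reshapes the proteome of maturing red cells in mice, was higher in all 2-cell libraries than in all oocyte and 4-cell ones and lower in all 16-cell libraries than in all 8-cell embryos and morulae, with no step called. Against oocytes, blastocysts were called higher without blastocyst C (log2 fold change 1.04, adjusted p = 0.0145). UBE2QL1 had at most 15 reads in any library, 0.263 RPM in blastocyst B, and none in 15 libraries.

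**Figure D3:**
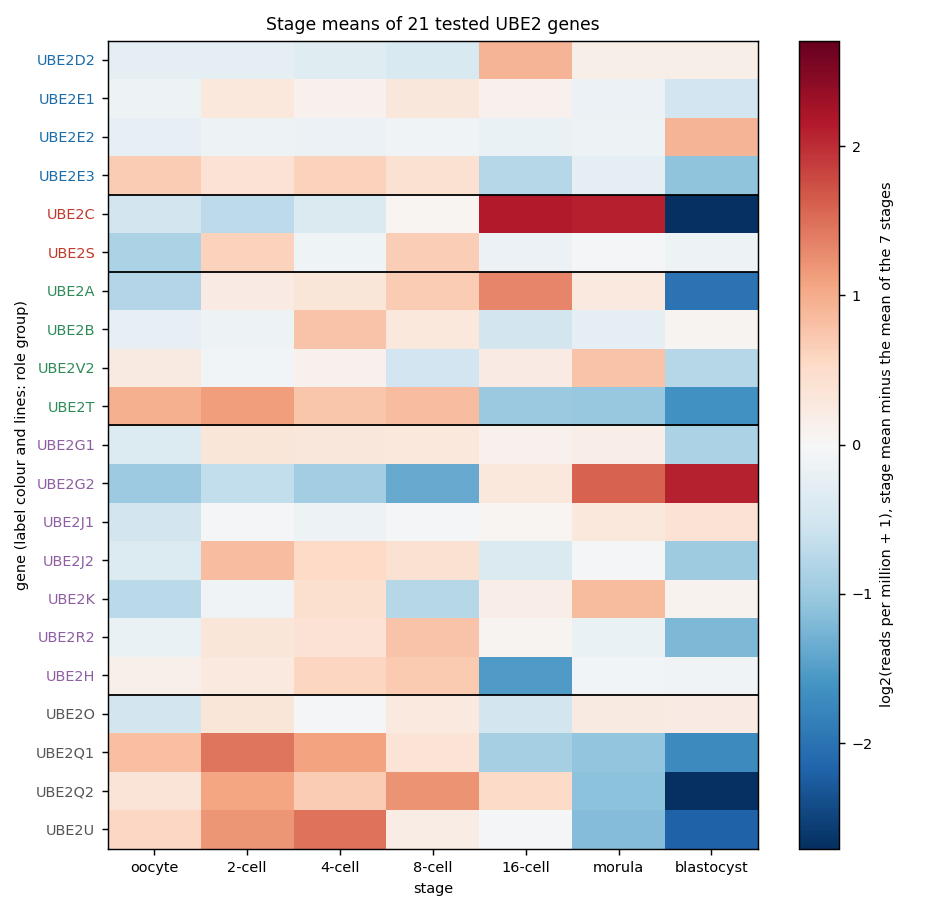
Stage means of log2(RPM + 1) of 21 UBE2 genes tested, minus each gene's mean over the 7 stages, with genes in rows by role group and stages in columns. UBE2C is darkest red at the 16-cell and morula stages and UBE2G2 in blastocysts, and UBE2Q2 and UBE2C are darkest blue in blastocysts.

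Set against all genes, the counts of UBE2 calls followed the background of each step. From oocyte to 2-cell stage 2 of 22 were called higher and 0 lower, where 14.5% of all genes were called, 14.0% higher and 0.482% lower. Between the 2-cell and the 4-cell stage limma called 0 UBE2 genes and 0 of 10384 genes (0%). At an unadjusted p under 0.05 there were 326 genes and 0 UBE2 genes, and voom called 0 of each. Between the 4-cell and the 8-cell stage no UBE2 gene was called, against 0.385% of all genes (0.289% higher and 0.0963% lower). At an unadjusted p under 0.05 there were 2 of 22 UBE2 genes and 9.63% of all genes at this step, and voom called 0 UBE2 genes. The spread used at every step was pooled over the 7 stages. Pearson correlations within a stage were 0.973 to 0.992 at the 8-cell stage and 0.833 to 0.944 in morulae. Without 16-cell C and morula C, which are not part of this comparison, 15.8% of all genes had an unadjusted p under 0.05. UBE2K was then called lower, and array weights called UBE2B, UBE2K and UBE2U lower. The absence of calls at early steps thus does not show unchanged levels. At the 16-cell stage 3 rose and 4 fell (31.8% called), against 15.4% of all genes higher, 30.7% lower and 46.1% in either direction. In morulae 2 rose and 2 fell (18.2%), against 9.44% higher, 7.59% lower and 17.0% in all. In blastocysts 1 rose and 7 fell against morulae (36.4%), where 7.74% of all genes were higher, 28.1% lower and 35.9% called. Against oocytes, 2 UBE2 genes were higher and 9 lower in blastocysts, 11 of 22, beside 20.8% of all genes higher, 36.6% lower and 57.4% called. UBE2E2, which entered the test through blastocysts alone, is the gene counted as higher against morulae and 1 of the 2 counted as higher against oocytes. These shares are near the background and are no result about the family.

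The median log2 fold change of the UBE2 genes also lay close to that of all genes. It was 0.48 for the UBE2 genes and 0.46 for all genes at the 2-cell, -0.05 and -0.11 at the 4-cell, 0.08 and 0.05 at the 8-cell and -0.47 and -0.52 at the 16-cell stage. In morulae it was 0.05 for the UBE2 genes and -0.09 for all genes, in blastocysts -0.71 and -0.50 against morulae, and -0.54 and -0.44 against oocytes. Scaling that removes the shift of the median gene moved the split of the calls. Of all genes called, 96.7% were higher at the 2-cell stage, against 50.6% with quantile normalization and 36.8% with median-ratio scaling. At the 16-cell stage the share was 33.5% against 47.6 and 53.2%, in morulae 55.4% against 54.7 and 39.9%, in blastocysts over morulae 21.6% against 50.6 and 52.8%, and in blastocysts over oocytes 36.2% against 49.1 and 45.8%. The UBE2 genes called at the 16-cell stage were then 6 higher and 2 lower in both scalings: UBE2A, UBE2K and UBE2V2 joined UBE2C, UBE2D2 and UBE2G2 above, and UBE2H and UBE2T stayed below. In blastocysts against morulae they were 2 higher (UBE2E2 and UBE2G2) and 3 lower, UBE2A and UBE2C among them, in both scalings. In blastocysts against oocytes UBE2E2, UBE2G2, UBE2J1, UBE2K, UBE2O and UBE2S were called higher in both. UBE2E2 and UBE2J1 passed the filter only with the blastocysts, so their calls are no support. Among the genes called lower, UBE2C, UBE2Q1, UBE2Q2, UBE2T and UBE2U stayed so in both scalings, and UBE2E3 with median-ratio scaling only. The shares of all genes tested that were called higher or lower under these scalings are not given here. The UBE2 counts under them are therefore no result about the family. Without 16-cell C and morula C the UBE2 counts were 3 higher at the 2-cell stage, 1 lower at the 8-cell stage, 4 higher and 5 lower at the 16-cell stage, 2 and 4 in morulae, and 1 and 3 in blastocysts against morulae. The shares of all genes under this setting were 18.96% higher at the 2-cell stage, 0.343% lower at the 8-cell stage, 16.6% higher and 38.6% lower at the 16-cell stage, 13.2 and 15.5% in morulae, and 8.18 and 24.9% in blastocysts. Blastocyst C, whose share of gene reads was higher, had the highest of the 3 blastocyst values for 11 of 22 UBE2 genes, against 44.7% of all genes tested, and the part of this difference in the blastocyst results was not tested.

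**Figure D4:**
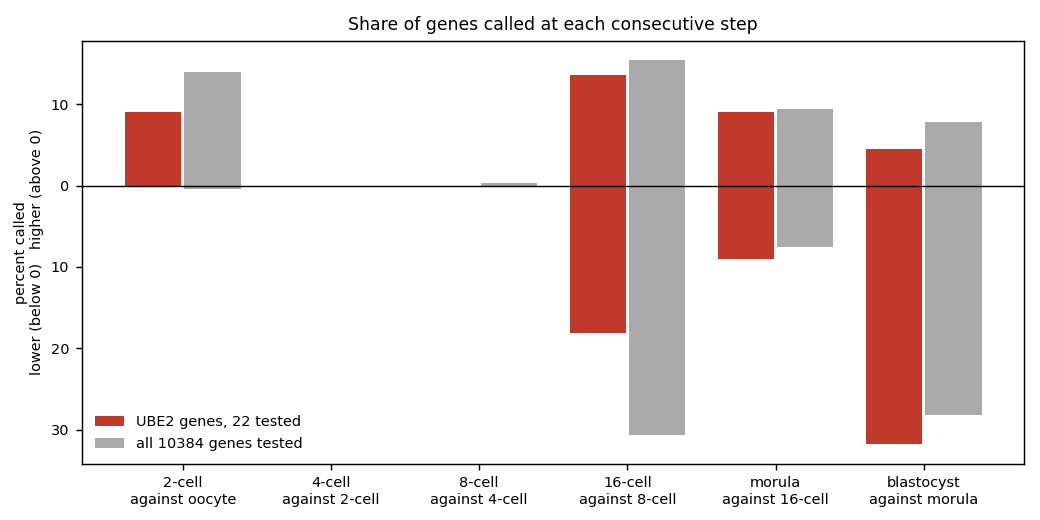
Percent of the 22 UBE2 genes (red, left bar) and of all 10384 genes tested (grey, right bar) called higher (above 0) or lower (below 0) at each consecutive step. No UBE2 gene was called at the 4-cell and 8-cell stages, and at the 16-cell stage 31.8% of UBE2 genes and 46.1% of all genes were called.

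The enzymes and proteins that E2s work with were followed in 6 lists of 88 genes, of which 72 were found and 67 tested. At the 16-cell stage the calls were 1 higher and 3 lower of 8 E1 activating enzymes, 2 higher and 1 lower of 6 genes of ubiquitin and its relatives, 1 higher and 2 lower of 5 other E2-fold genes, 0 higher and 6 lower of 15 genes of the anaphase-promoting complex, 3 higher and 4 lower of 11 cullin-RING genes and 1 higher and 12 lower of 22 cognate E3 ligases. Of all genes 15.4% were higher and 30.7% lower. The list medians were -0.42, 0.35, 0.22, -1.11, -0.69 and -1.24 in that order, beside -0.52 for all genes. The cognate E3 ligases that fell included RAD18 and RNF20, the partners of UBE2A and UBE2B, and PIAS1, a SUMO ligase. RPS27A, a ribosomal protein made as a fusion with ubiquitin, averaged 312 ± 59.5 RPM at the 16-cell and 40.99 ± 2.61 RPM at the 8-cell stage (log2 fold change 2.88, SE 0.42, adjusted p = 1.53e-05). SKP1, the adaptor of SCF ligases, averaged 13.1 ± 14.9 RPM at the 16-cell and 1.18 ± 0.495 RPM at the 8-cell stage (log2 fold change 2.17, SE 0.49, adjusted p = 0.00116). FBXO43, known as EMI2, which holds the anaphase-promoting complex inactive in oocytes, averaged 12.2 ± 8.896 RPM at the 16-cell and 113 ± 19.96 RPM at the 8-cell stage (log2 fold change -3.30, SE 0.64, adjusted p = 0.0003). BTRC, a substrate receptor of SCF ligases, averaged 6.92 ± 4.76 RPM at the 16-cell and 55.3 ± 11.6 RPM at the 8-cell stage (log2 fold change -2.97, SE 0.39, adjusted p = 4.41e-06). Groups did not overlap for these 4 genes, and the calls were kept in all alternatives and whichever library was left out. RPS27A belongs to a family with many near-identical copies, so its values are uncertain.

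In morulae against 16-cell embryos the calls were 2 higher and 0 lower of 8 E1 enzymes, 2 higher and 0 lower of 6 ubiquitin genes, 1 higher and 1 lower of 5 other E2-fold genes, 1 higher and 0 lower of 15 genes of the anaphase-promoting complex, 0 higher and 1 lower of 11 cullin-RING genes and 1 higher and 0 lower of 22 cognate E3 ligases. Of all genes 9.44% were higher and 7.59% lower. The list medians were 0.40, 0.41, 0.37, 0.52, -0.19 and -0.04 in that order, beside -0.09 for all genes. CDC16, a core subunit of the anaphase-promoting complex, averaged 10.9 ± 2.24 RPM in morulae and 3.05 ± 1.67 RPM at the 16-cell stage (log2 fold change 1.65, SE 0.40, adjusted p = 0.00582). AKTIP, an inactive E2-fold protein, and CUL4B, a cullin, were lower. AKTIP stood at 11.04 ± 11.6 RPM in morulae and 53.2 ± 30.4 RPM at the 16-cell stage (log2 fold change -2.54, SE 0.62, adjusted p = 0.00655). CUL4B averaged 9.83 ± 4.696 RPM in morulae and 33.01 ± 8.61 RPM at the 16-cell stage (log2 fold change -1.73, SE 0.42, adjusted p = 0.0063). Without morula A the call of AKTIP was lost (adjusted p = 0.0691), and CDC16 was lost with a pseudocount of 5. In blastocysts against morulae they were 0 higher and 4 lower of 8 E1 enzymes, 0 higher and 2 lower of 6 ubiquitin genes, 0 higher and 1 lower of 5 other E2-fold genes, 0 higher and 6 lower of 15 genes of the anaphase-promoting complex, 1 higher and 5 lower of 11 cullin-RING genes and 1 higher and 6 lower of 22 cognate E3 ligases. Of all genes 7.74% were higher and 28.1% lower. Here the medians were -0.50, -0.95, 0.22, -0.45, -0.89 and -0.55, beside -0.50 for all genes. CUL7, a cullin, averaged 3.96 ± 1.45 RPM in blastocysts and 0.965 ± 0.4303 RPM in morulae (log2 fold change 1.32, SE 0.23, adjusted p = 9.84e-05). RING1, a Polycomb ligase of histone H2A, averaged 3.64 ± 0.733 RPM in blastocysts and 1.21 ± 0.694 RPM in morulae (log2 fold change 1.11, SE 0.22, adjusted p = 0.000404). The rise of RING1 fell short of the fold threshold without morula B or blastocyst B, and both rises were lost with a pseudocount of 5. ANAPC15, a small subunit of the anaphase-promoting complex, averaged 4.96 ± 3.37 RPM in blastocysts and 72.8 ± 89.4 RPM in morulae (log2 fold change -3.13, SE 0.72, adjusted p = 0.00154). FBXO5, its inhibitor EMI1, averaged 36.6 ± 20.7 RPM in blastocysts and 306 ± 219 RPM in morulae (log2 fold change -2.99, SE 0.51, adjusted p = 8.33e-05). Both falls were kept in all alternatives and whichever library was left out.

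**Figure D5:**
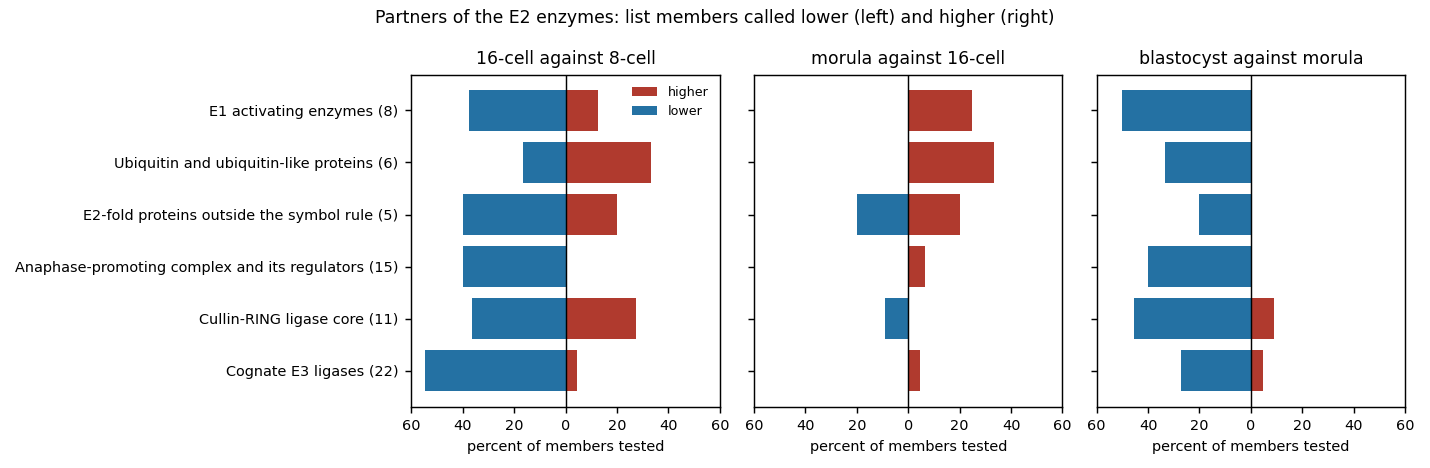
Percent of the tested members of each of 6 lists of E2 partners that were called lower (blue, left of 0) or higher (red, right of 0) at the 3 steps with most UBE2 calls, with the number of members tested in brackets. At the 16-cell stage 12 of 22 cognate E3 ligases and 6 of 15 genes of the anaphase-promoting complex were lower.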

How the data were processed

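RNA was measured by high-throughput sequencing in 21 libraries of goat oocytes and embryos, and the authors deposited 1 table of RPKM values for 19040 genes. The submitters' processing notes name FastQC, STAR 2.5.3a and Partek. Which build, which strand setting and which way of counting were used is not given in the sources used here. The lowest value was 0.01 in every library. After subtraction of 0.01 and multiplication by the start-to-stop span, 93.3 to 95.5% of low values per library were whole multiples of 1 step (tolerance 0.05). The deposited RPKM is therefore divided by the whole gene span, introns included, which lowers the value of long genes and makes a filter or pseudocount act unevenly. The span was multiplied back to give RPM, and RPKM was kept as an alternative.

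Genes with at least 1 RPM in at least 3 libraries were fitted on log2(RPM + 1) with limma 3.58.1 (trend, robust) in R 4.3.3, in 1 model of 7 stages and 21 libraries. Tests were two-sided with Benjamini-Hochberg adjustment. The fold change understates the change of low genes. Calls and the F test are as defined in the report. The fit was also run on simulated data in which each gene had the same spread at all stages. Such data cannot show how the fit behaves where spread differs between stages, and no conclusion is drawn from them. Tables were made with pandas 2.3.3 and numpy 2.4.6 in Python 3.11.15, and plots with matplotlib 3.10.9.

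Alternatives were deposited RPKM, pseudocounts of 0.1 and 5, a filter of 5 RPM, no filter, quantile normalization, median-ratio scaling, array weights, a replicate block by letter, leaving out 16-cell C and morula C together, and each library in turn. Voom on the recovered reads was added after seeing the data. The members and lists were chosen with earlier results of these data known. Values per library are given for each member called at a consecutive step and up to 2 further members per role group with the highest mean, and up to 2 rises and 2 falls of listed partner genes at the 3 steps with most UBE2 calls. No sequences were used. 1 member and 2 partner genes are not reported here; counts over members and lists include them.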

Additional observations from a re-analysis of the deposited data

How the results depend on the processing

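Counts of UBE2 genes called moved by more than 1.5 times as follows. At the 2-cell stage the count of 2 became 1 with deposited RPKM, 1 with a pseudocount of 0.1, 1 with a pseudocount of 5 and 1 with a filter of 5 RPM, and 0 with quantile normalization, median-ratio scaling or voom. At the 8-cell stage the count of 0 became 3 with array weights and 1 without 16-cell C and morula C. At the 16-cell stage the count of 7 became 2 with RPKM and 3 with a pseudocount of 5, and in morulae the count of 4 became 0 with RPKM. In blastocysts against morulae the count of 8 became 3 with RPKM, 5 with a pseudocount of 5, a filter of 5 RPM, quantile normalization or median-ratio scaling, 1 with array weights and 4 without 16-cell C and morula C. Against oocytes the count of 11 became 4 with RPKM. The F test counted 7 with RPKM in place of 19. On RPKM only 9 UBE2 genes passed the filter, and with a filter of 5 RPM 15 did; for the other changes the cause was not tested.

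Leaving out 1 library at a time gave 0 to 3 calls at the 2-cell stage, 0 at the 4-cell and 8-cell stages, 2 to 8 at the 16-cell stage, 1 to 6 in morulae, 4 to 8 in blastocysts against morulae and 8 to 11 against oocytes, and the F test counted 16 to 19. The single libraries that moved a count by over 1.5 times were oocyte C (0 calls without it), 2-cell B (1) and 2-cell C (1) at the 2-cell stage, 16-cell A (2) at the 16-cell stage, 16-cell A (1), 16-cell C (1) and morula B (2) in morulae, and morula C (4) and blastocyst B (4) in blastocysts against morulae. Of 997 values of the 32 single calls under the alternatives, 901 kept the call, 96 lost it and 0 changed sign. Of these, 666 were fits with 1 library left out, and 39 of those lost the call. Most of the libraries left out belonged to neither stage compared. Leaving out such a library cannot move the fold change, so these totals overstate how stable the calls were.

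No pairing by letter was seen. Correlations of deviations from the stage mean exceeded 0.1 in 13 of 63 pairs of libraries with the same letter and in 29 of 126 with other letters. Between consecutive stages they did so in 6 of 18 same-letter pairs, and 6 of 21 libraries correlated best with a library of their own letter. Such correlations cannot exclude shared females or batches, which the labels do not give. With the letter as a replicate block the counts were 2, 0, 0, 7, 4 and 8 at the 6 consecutive steps and 11 from oocyte to blastocyst, as without it, and 18 in the F test. Depth limits UBE2L6 and UBE2QL1, whose reads were too few for the filtered limma fit and for voom. UBE2M and UBE2Z were below 1 RPM, and of their tests only voom is given. The limma alternative with no filter held all of these genes, but its values for them are not given here.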
